A study of Mus musculus with 80 samples.

Results

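Cdkn2a and 9 genes of the p53 pathway were followed through 80 mammary tumours of mice. The 10 listed genes were Trp53, Cdkn2a, Cdkn1a, Mdm2, Ccng1, Bbc3, Bax, Aen, Gadd45a and Trp53inp1, and every probe set named for one of them was taken. Of the 10, 8 had a named probe set, with 15 probe sets in all among 22626 on the array, and Trp53 and Bax were not analysed here. All mice were of the FVB strain and carried the MMTV-Myc transgene, in which a mouse mammary tumour virus promoter drives the Myc oncogene in mammary epithelium. The 4 groups, with 20 tumours each, were E2F1 null, E2F2 null, E2F3 heterozygous and E2F wild type, so the wild-type tumours carried MMTV-Myc as well. Tumours were flash frozen once the primary tumour was at its endpoint, a selection of 20 per background was used, and each gave 1 array. Neither the basis of that selection nor the age of the mice is stated in the labels. A number before the hyphen in the tumour label was shared by 46 tumours under 19 numbers, and the sources used here do not say what it marks. There were 53 such label numbers in all. Of these, 16 were in E2F1 null, 11 in E2F2 null, 10 in E2F3 heterozygous and 16 in wild-type tumours.

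The p53 protein, encoded by Trp53, is a transcription factor that holds back dividing cells that carry DNA damage or an active oncogene. Cdkn2a encodes 2 unrelated proteins from separate first exons: p16Ink4a, which inhibits the kinases Cdk4 and Cdk6, and p19Arf, which binds the Mdm2 protein and so frees p53 from degradation. E2F factors can activate the p19Arf promoter, and in Myc-driven lymphoma of mice loss of p19Arf or of p53 is known to speed the disease. When p53 is active it raises transcription of Cdkn1a, Ccng1 and Gadd45a, which act in cell cycle arrest and repair, and of Bbc3, Bax, Aen and Trp53inp1, which act in cell death. It also raises transcription of its own inhibitor Mdm2.

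Promoter windows show where the p53 and E2F letters lie in the genes that the results turn on. RefSeq (GRCm38.p6) held 14 windows for 9 of the 10 genes, each reaching from 250 bases before to 50 bases after a gene start, and none for Trp53inp1. The p53 half-site consensus, which reads the same on both strands, stood in 8 of the 14 windows, against 8.36% of 32851 windows of the same length across all genes. These 8 windows belong to 7 genes, since a pair of overlapping Aen windows holds the same site. The E2F site searched was TTT, then a pair of bases that were each C or G, then CGC, on either strand. It stood in 1 of the 14 windows, against 2.27% of all windows. That window lies at the upstream start of Cdkn2a, from which p19Arf is transcribed, and it held no p53 half-site. A match is a run of letters and was not tested as a binding site. Capitals mark the E2F site in Cdkn2a, which begins 99 bases before the start, and the p53 half-sites in the 4 target genes. Cdkn1a and Cdkn2a each had another window, at another start, that held neither motif and is not shown.
Cdkn2a, chr4:89294570-89294869, minus strand: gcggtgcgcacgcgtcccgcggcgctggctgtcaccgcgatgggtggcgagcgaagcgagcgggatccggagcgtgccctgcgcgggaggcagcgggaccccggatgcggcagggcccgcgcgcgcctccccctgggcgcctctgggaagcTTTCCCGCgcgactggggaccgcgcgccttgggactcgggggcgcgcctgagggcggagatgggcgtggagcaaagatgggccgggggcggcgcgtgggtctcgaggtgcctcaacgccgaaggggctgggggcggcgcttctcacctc
Mdm2, chr10:117710709-117711008, minus strand: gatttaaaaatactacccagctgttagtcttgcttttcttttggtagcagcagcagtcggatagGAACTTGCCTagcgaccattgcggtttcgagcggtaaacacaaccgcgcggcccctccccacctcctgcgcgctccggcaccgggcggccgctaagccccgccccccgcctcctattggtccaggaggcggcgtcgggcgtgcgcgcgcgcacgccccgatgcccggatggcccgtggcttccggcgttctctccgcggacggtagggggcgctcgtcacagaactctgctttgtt
Cdkn1a, chr17:29090729-29091028, plus strand: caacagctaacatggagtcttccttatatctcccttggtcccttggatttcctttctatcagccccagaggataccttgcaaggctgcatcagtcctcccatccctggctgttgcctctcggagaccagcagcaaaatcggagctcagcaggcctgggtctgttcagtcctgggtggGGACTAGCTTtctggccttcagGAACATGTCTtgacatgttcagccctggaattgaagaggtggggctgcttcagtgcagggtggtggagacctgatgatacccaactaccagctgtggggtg
Ccng1, chr11:40755237-40755536, minus strand: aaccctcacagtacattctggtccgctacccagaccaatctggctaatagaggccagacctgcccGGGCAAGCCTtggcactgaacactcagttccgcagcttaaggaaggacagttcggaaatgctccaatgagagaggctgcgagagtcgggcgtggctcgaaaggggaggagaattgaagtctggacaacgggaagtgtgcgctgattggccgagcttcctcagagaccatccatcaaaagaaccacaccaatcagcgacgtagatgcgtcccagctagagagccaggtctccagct
Gadd45a, chr6:67037358-67037657, minus strand: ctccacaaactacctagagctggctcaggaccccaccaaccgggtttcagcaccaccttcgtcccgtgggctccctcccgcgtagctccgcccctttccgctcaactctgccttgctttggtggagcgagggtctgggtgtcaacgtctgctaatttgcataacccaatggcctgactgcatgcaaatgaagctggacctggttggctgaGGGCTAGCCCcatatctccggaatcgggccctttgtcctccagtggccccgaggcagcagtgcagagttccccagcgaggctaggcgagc

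Values were MAS5 intensities, a linear measure of probe brightness, and all arrays had been scaled by the authors to a common trimmed mean of about 500.2. A signal above 74.6, the 40th percentile of all values, was taken as above the low range, and tests used log2(signal + 5). One E2f1 probe set had a median signal of 80.8 in E2F1 null tumours and 128 in wild-type tumours, while the other had medians of 128 and 133. Whether these probes lie in the deleted part of the gene is not given, so the second checks nothing by itself. E2f3 medians were 101 in E2F3 heterozygous tumours and 99.5 in wild-type tumours, and E2f2 was not analysed here. The lowest Myc signal of any tumour was 5701. Summed signals of 9 luminal epithelial markers ran from 19178 to 65967 over all tumours, and 1 of the 9 was never above 74.6.

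Cdkn2a was in the low range in most tumours and above it in a few tumours of every genotype. Its single probe set, for a gene on chromosome 4, cannot separate p16Ink4a from p19Arf. The lowest, median and highest Cdkn2a signals were 19.9, 44.8 and 560.9 in E2F1 null tumours, 6.13, 29.8 and 136 in E2F2 null tumours, 18.2, 38.3 and 323 in E2F3 heterozygous tumours, and 1.98, 57.7 and 194 in wild-type tumours. The ranges overlapped between all 4 genotypes. Signals passed 74.6 in 4 E2F1 null, 3 E2F2 null, 3 E2F3 heterozygous and 6 wild-type tumours, or 16 of the 80. The mean log2 level was 5.91 ± 1.02 in E2F1 null, 5.08 ± 1.02 in E2F2 null, 5.63 ± 0.99 in E2F3 heterozygous and 5.82 ± 1.07 in wild-type tumours (SD, n = 20 each). In whole-tumour RNA, fewer cells that express a gene and less RNA per cell cannot be told apart.

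**Figure D1:**
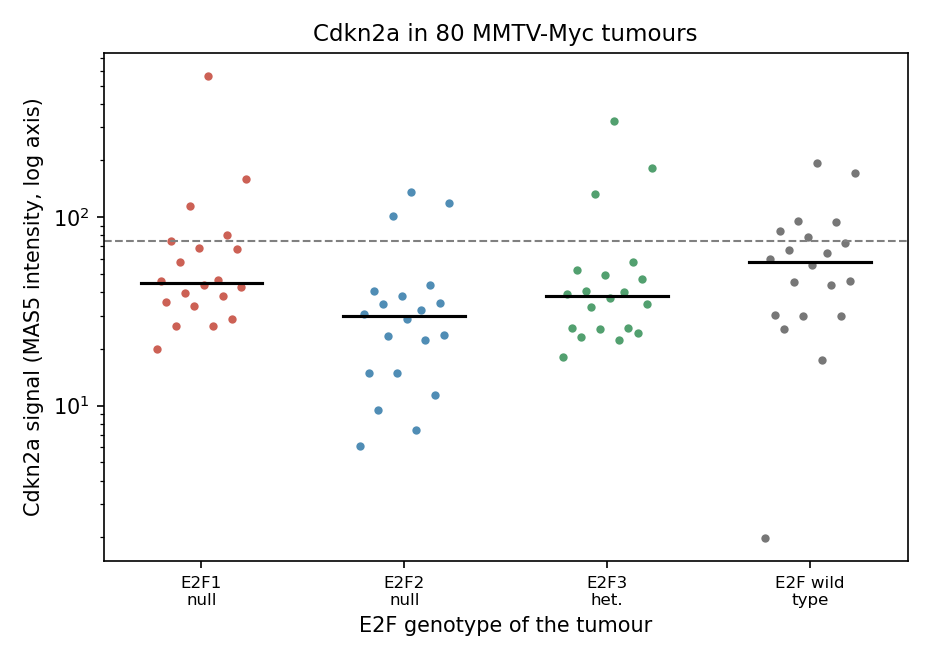
Cdkn2a MAS5 intensity (log axis) in each tumour, by E2F genotype. Points are tumours (20 per genotype), thick lines are group medians (44.8, 29.8, 38.3 and 57.7 from left to right), and the dashed line marks 74.6; most points lie below it and a few in each genotype lie above.

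The tumours did not fall into separate Cdkn2a-high and Cdkn2a-low groups by the criterion used, which asked for 2 normal components to beat 1 by at least 10 BIC units (a score of model fit) and for a gap of over 1 log2 unit. The gain from a second component was -2.55 units, so a single component scored better. With 20 in place of 5 added to the signal, the gain was 4.95 units. There 2 components scored better, though by less than the 10 units asked for. The largest gap between neighbouring tumours with at least 6 on each side was 0.22 log2 units, with 74 tumours below it and 6 above. Within a genotype the gain was 2.56 in E2F1 null, -1.29 in E2F2 null, 9.23 in E2F3 heterozygous and -2.25 in wild-type tumours, each under 10. Wider gaps set off fewer than 6 tumours: 3 E2F2 null tumours lay 1.13 log2 units above the other 17, 3 E2F3 heterozygous tumours lay 1.14 above the other 17, 1 E2F1 null tumour lay 1.78 above the other 19, and 1 wild-type tumour lay 1.69 below the other 19. Over all 80 tumours the widest gap was 0.79, below the single highest tumour. Only 16 of the 80 tumours were above 74.6, and imprecise values among the low ones could blur a gap or a second component. The criterion therefore cannot exclude 2 groups. Since it was not met, Cdkn2a was treated as a graded measure, and no tumours were grouped by it.

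Among the targets, Mdm2 came nearest to 2 components. Its gain was 25.7 BIC units, past the 10 asked for. Of the weight, 67.2% lay at a mean log2 level of 8.69 (SD 0.23) and 32.8% at 9.62 (SD 0.64), so the components overlapped. The gap asked for was not met, and Mdm2 did not count as having separate groups. Its largest gap with at least 6 tumours on each side was 0.21 log2 units, and its largest gap of any kind was 0.35, below the 3 highest tumours. The gain was 6.91 for Cdkn1a, 3.80 for Ccng1, 3.07 for Gadd45a, -2.61 for Aen, -7.25 for Trp53inp1 and -8.78 for Bbc3.

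Levels of the targets by genotype are given first, starting with the inhibitor of p53. Mdm2, the ubiquitin ligase that marks p53 for degradation, had lowest, median and highest signals of 320.0, 457 and 2003 in E2F1 null tumours, 326, 420.5 and 774 in E2F2 null tumours, 298, 448 and 1916 in E2F3 heterozygous tumours, and 287, 463 and 1691 in wild-type tumours. Medians lay close together, and the E2F2 null tumours lacked the high values seen in the other 3 genotypes. Cdkn1a, the cyclin-dependent kinase inhibitor p21, had signals of 88.3, 612 and 4252 in E2F1 null tumours, 194, 408 and 2048 in E2F2 null tumours, 212, 471 and 4604 in E2F3 heterozygous tumours, and 192, 715 and 3249 in wild-type tumours. Its spread was the widest of the 8 genes, with an SD of 1.25 log2 units over the 80 tumours. Gadd45a, which acts in DNA repair and stress signalling, had signals of 69.2, 336 and 1188 in E2F1 null tumours, 103, 205 and 506 in E2F2 null tumours, 129.9, 268 and 1627 in E2F3 heterozygous tumours, and 152, 306 and 2144 in wild-type tumours. Ccng1, which encodes the p53-induced cyclin G1, had signals of 1487, 2461 and 5934 in E2F1 null tumours, 1469, 2083 and 3203 in E2F2 null tumours, 1513, 2190.0 and 5508 in E2F3 heterozygous tumours, and 1455, 2485 and 5102 in wild-type tumours. For both genes the 4 groups overlapped, with the narrowest range in E2F2 null tumours.

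The 3 measured genes of cell death were above 74.6 in every tumour at their brightest probe set. Bbc3 encodes PUMA, a BH3-only protein that frees Bax and Bak. Its median signal was 222 in E2F1 null, 191 in E2F2 null, 212 in E2F3 heterozygous and 209 in wild-type tumours, within a range of 119.7 to 411 over all 80. Aen, an exonuclease induced by p53, had median signals of 703, 669, 730.1 and 728 in E2F1 null, E2F2 null, E2F3 heterozygous and wild-type tumours. Trp53inp1, a nuclear protein that promotes p53 activity and autophagy, had median signals of 1281, 977, 1178 and 1346 in the same order of genotypes. In all 8 genes, Cdkn2a included, E2F2 null tumours had the lowest median of the 4 genotypes, and in 7 of the 8 they had the lowest maximum. The 8 genes moved together across tumours, by the correlations given later, so these counts are a description of 1 set of tumours and not 8 separate observations.

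**Figure D2:**
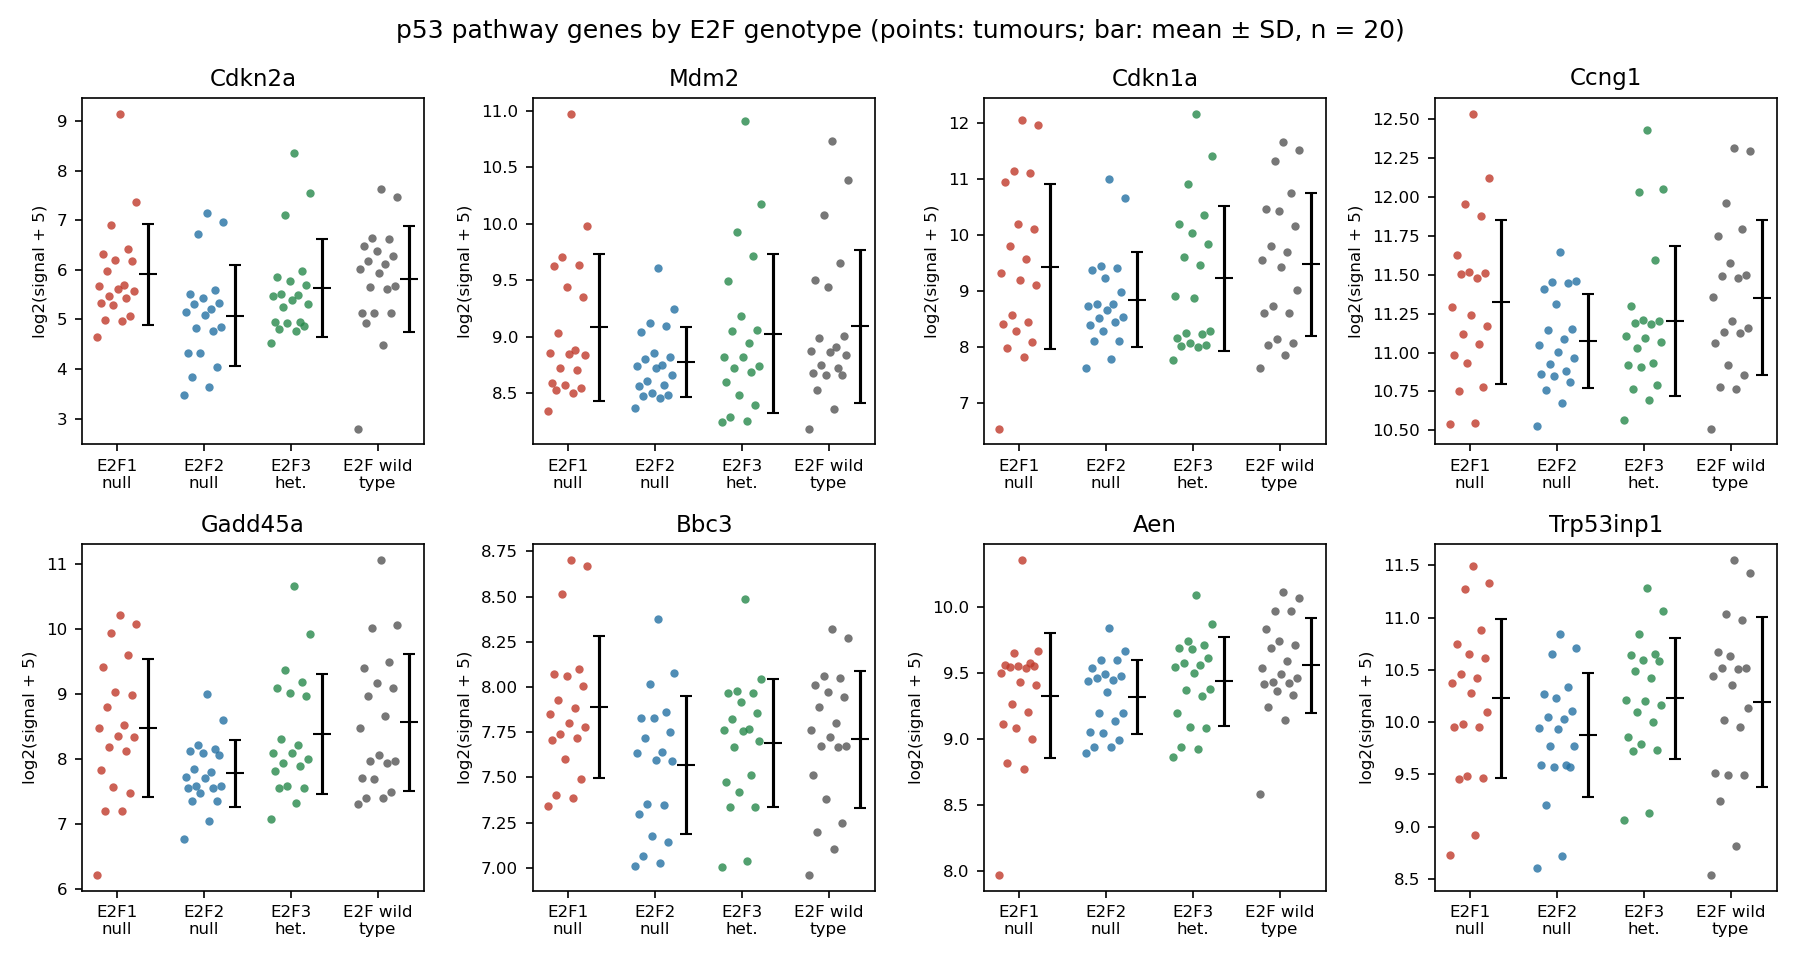
Levels of the 8 measured genes as log2(signal + 5) in each tumour, by E2F genotype. Points are tumours, and each bar is the mean ± SD of 20 tumours; the groups overlap in every panel, and the E2F2 null tumours reach lower maxima in all panels but Bbc3.

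No E2F genotype changed any of the 8 genes at an adjusted p under 0.05 in limma's moderated test. Over all 8769 genes tested, 4 genes (0.0456%) passed in E2F1 null against wild-type tumours, 2 (0.0228%) in E2F2 null against wild type, and 0 (0%) in E2F3 heterozygous against wild type. In that last contrast 58 genes, none of them among the 8, were under 0.05 before adjustment. Between the mutant backgrounds, 14 genes (0.16%) passed in E2F1 null against E2F2 null, 7 (0.0798%) in E2F1 null against E2F3 heterozygous, and 3 (0.0342%) in E2F2 null against E2F3 heterozygous. A moderated F test over the 4 genotypes called 13 genes (0.148%), again none of the 8. With so few genes called in the whole table, a count of 0 among 8 says little about these genes.

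The differences nearest to the threshold were those of E2F2 null tumours. Against wild type, all 8 log2 fold changes were negative. Gadd45a had a log2 fold change of -0.78 (95% confidence interval -1.40 to -0.17, limma p = 0.0135, adjusted p = 0.769). Cdkn2a had a log2 fold change of -0.71 (-1.40 to -0.02, limma p = 0.0428, adjusted p = 0.788). Of the 8 genes, these 2 alone were under 0.05 before adjustment in that contrast, where 538 of all 8769 genes were. For Cdkn1a the log2 fold change was -0.66 with an interval of -1.48 to 0.17, and for Mdm2 it was -0.34 with an interval of -0.74 to 0.07. Both intervals include 0. Ccng1, Trp53inp1, Aen and Bbc3 had values of -0.29, -0.34, -0.24 and -0.12. Other gene lists shifted in the same contrast, although 0 of their genes passed and 0.0228% of all genes did. All 19 tested mitotic genes had a higher mean in E2F2 null tumours (median log2 fold change 0.22), as did 16 of 18 replication genes (median 0.20), against a median of -0.01 over all genes. Lower means were found for 10 of 11 macrophage genes (median -0.20), 11 of 14 fibroblast genes (median -0.15), 8 of 8 endothelial genes (median -0.11), 4 of 5 squamous genes (median -0.40) and 4 of 5 basal genes (median -0.22). Their part in the values of the 8 genes was not tested.

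In E2F1 null against E2F2 null tumours, 3 of the 8 genes were under 0.05 before adjustment, where 840 of all 8769 genes were. Cdkn2a had a log2 fold change of 0.81 (limma p = 0.0209, adjusted p = 0.468), Gadd45a of 0.69 (limma p = 0.0278, adjusted p = 0.480) and Bbc3 of 0.31 (limma p = 0.0154, adjusted p = 0.444). This contrast shares its E2F2 null tumours with the one against wild type. In E2F1 null against wild-type tumours no gene of the 8 was under 0.05 before adjustment, where 112 of all 8769 genes were. There Cdkn2a had a log2 fold change of 0.10 with an interval of -0.57 to 0.77. In E2F3 heterozygous against wild-type tumours the Cdkn2a value was -0.21 with an interval of -0.90 to 0.48.

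Across tumours, most of the measured p53 targets followed Cdkn2a. Its signal was above 74.6 in only 16 of the 80 tumours, so its order among the low ones is imprecise. Each gene's log2 level was regressed on the log2 level of Cdkn2a in limma, with genotype as a factor and the label number as a random block, and p-values were adjusted over 8768 genes. A slope is the change of a gene in log2 units per log2 unit of Cdkn2a. Of the 7 measured targets, 6 passed and all 6 had positive slopes, against 18.8% of all genes passing with a positive slope and 13.3% with a negative one. Mdm2 had a slope of 0.42 (SE 0.047, limma adjusted p = 6.2e-10) and ranked 3 of 8768 by p-value. Cdkn1a had a slope of 0.85 (SE 0.097, limma adjusted p = 6.57e-10) and ranked 4. Thus the inhibitor of p53 and the kinase inhibitor p21 stood near the top of the whole table by the p-value of this fit.

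The other targets ranked lower. Gadd45a had a slope of 0.49 (SE 0.086, limma adjusted p = 8.96e-06) at rank 167, and Ccng1 one of 0.24 (SE 0.043, limma adjusted p = 1.25e-05) at rank 187. Trp53inp1 had a slope of 0.30 (limma adjusted p = 0.000441) at rank 653, and Aen one of 0.13 (limma adjusted p = 0.00617) at rank 1519. Bbc3 had a slope of 0.08 (SE 0.040, limma adjusted p = 0.0981) and did not pass. The median slope of all genes was 0.01. Mdm2 and the genes of arrest and repair thus held the highest ranks and those of cell death the lowest, in an order that was not tested.

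**Figure D3:**
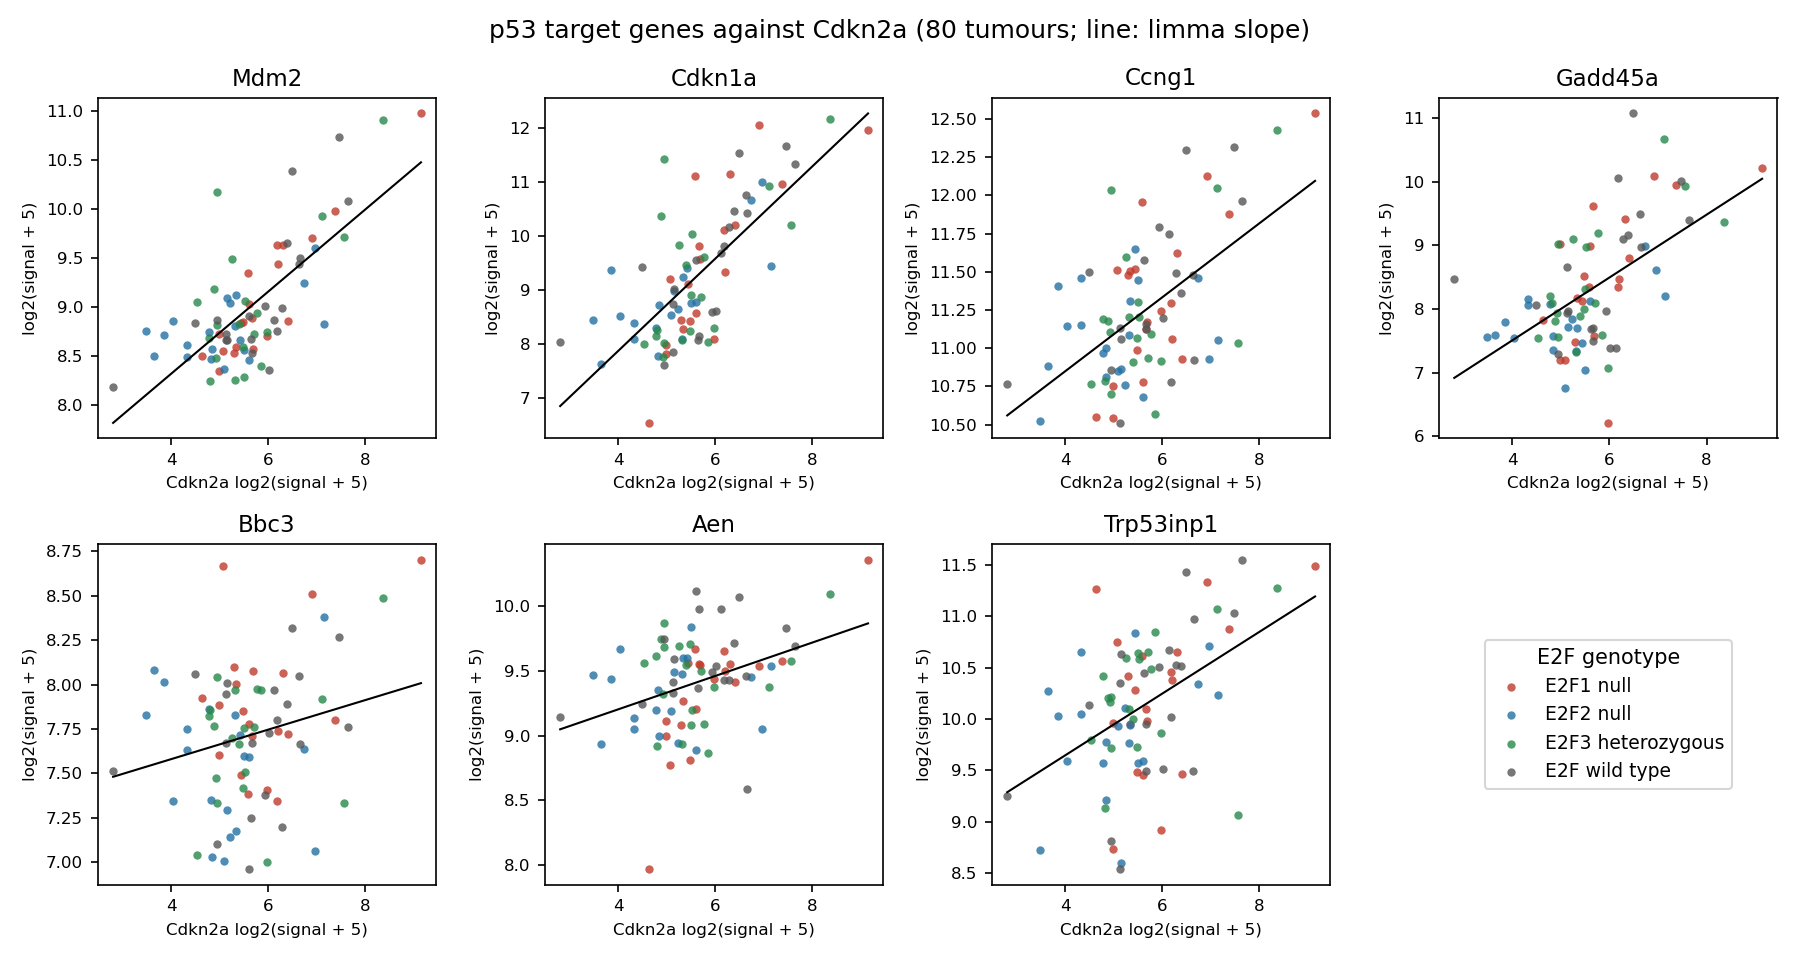
Level of each p53 target against Cdkn2a, both as log2(signal + 5), in 80 tumours coloured by E2F genotype. Lines have the limma slope, from 0.85 for Cdkn1a and 0.42 for Mdm2 to 0.08 for Bbc3; the slopes within single genotypes are given in the text.

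A similar relation was seen with means over the 53 label numbers, which count tumours that share a number once. Unlike the slopes, these correlations were not adjusted for genotype. Over these means Mdm2 ranked 4 and Cdkn1a 15 of 8768 genes by Pearson's r with Cdkn2a. The r was 0.736 for Mdm2 and 0.706 for Cdkn1a, with Spearman's rho of 0.709 and 0.716. Both permutation p-values were 1e-05, the smallest that 100000 resamples can give, with p-values of 0.000328 and 0.000217 after adjustment over all genes for r and for rho. Gadd45a had an r of 0.599 and a rho of 0.637 with the same permutation p-values. For Trp53inp1 r was 0.595 (permutation p = 2e-05, adjusted p = 0.000486) and rho 0.519 (permutation p = 0.00012, adjusted p = 0.00113). For Ccng1 r was 0.560 (permutation p = 5e-05, adjusted p = 0.000929) and rho 0.416 (permutation p = 0.00229, adjusted p = 0.0106). For Aen r was 0.497 (permutation p = 0.00018, adjusted p = 0.00209) and rho 0.540 (permutation p = 6e-05, adjusted p = 0.000691). Positive r passed in 19.2% of all genes and positive rho in 20.6%. Bbc3 had an r of 0.315 (permutation p = 0.0213, adjusted p = 0.0626) and a rho of 0.173 (permutation p = 0.216, adjusted p = 0.344), and neither passed.

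The label numbers farthest from the median of Cdkn2a were 3895 among E2F1 null and 3879 among wild-type tumours, each with a single tumour. Without them r was 0.653 for Mdm2, 0.675 for Cdkn1a, 0.622 for Gadd45a, 0.507 for Trp53inp1, 0.434 for Ccng1, 0.388 for Aen and 0.151 for Bbc3. The relation thus weakened most for Bbc3, Ccng1 and Aen.

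Single tumours lay with the relation or against it. The E2F1 null tumour numbered 3895 had a Cdkn2a signal of 560.9 and was also the highest of all 80 in Mdm2 (2003), Ccng1 (5934), Bbc3 (411) and Aen (1306). It ranked 2 in Trp53inp1 (2879) and 3 in Cdkn1a (3997) and Gadd45a (1188). The E2F3 heterozygous tumour next in order had a Cdkn2a signal of 323, the highest Cdkn1a signal of all (4604) and the next to highest Mdm2 (1916) and Ccng1 (5508), while its Gadd45a (657) ranked 13. The wild-type tumour of lowest Cdkn2a (1.98) also had the lowest Mdm2 (287), but it ranked 29 in Gadd45a (350.0). Other tumours went against the relation. Of the tumours with Cdkn2a not above 74.6, the one of highest Mdm2 was the E2F3 heterozygous tumour numbered 4032, whose Cdkn2a signal of 25.7 ranked 62 while its Mdm2 (1149), Cdkn1a (2725) and Ccng1 (4191) ranked 5, 6 and 7. Of the 16 above 74.6, the one of lowest Mdm2 was the E2F2 null tumour numbered 4124, whose Cdkn2a signal of 136 ranked 7 while its Mdm2 (448), Cdkn1a (694) and Ccng1 (2118) ranked 41, 31 and 51. With both arrays of highest Cdkn2a left out, a choice made after seeing the data, 5 of 7 targets passed against 24.9% of all genes in either direction. Aen was lost, with a slope of 0.08 (limma adjusted p = 0.143), and the slopes of Mdm2 and Cdkn1a were 0.35 and 0.85.

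Different probe sets of a gene gave similar slopes for Cdkn1a, Mdm2 and Ccng1. With each probe set entered separately, 10 of 13 target probe sets passed, against 30.4% of all probe sets in either direction. The other probe set of Cdkn1a had a slope of 1.03 and that of Mdm2 0.42, and the other 2 of Ccng1 had slopes of 0.23 and 0.19. Probe sets of a gene correlated at r of 0.883 for Cdkn1a, 0.848 for Mdm2 and 0.740 to 0.875 for Ccng1 over the 80 arrays. Disagreement was found for Trp53inp1, whose dimmer probe set had a slope of 0.07 (limma adjusted p = 0.478), and for Aen, whose middle probe set had a slope of 0.06 (limma adjusted p = 0.209). Another Aen probe set rose above 74.6 on 1 array only and was not tested.

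Within single genotypes the slopes were positive for all 7 targets except Bbc3 in E2F2 null tumours. In E2F1 null tumours 5 of 7 targets passed, against 4.51% of all genes in either direction. In E2F2 null tumours 0 of 7 passed, against 0.0342%, and in E2F3 heterozygous tumours 0 of 7 passed, against 0%. In wild-type tumours 4 of 7 passed, against 10.8%. Mdm2 had slopes of 0.59 (SE 0.060) in E2F1 null, 0.16 (SE 0.062) in E2F2 null, 0.44 (SE 0.108) in E2F3 heterozygous and 0.47 (SE 0.093) in wild-type tumours. Cdkn1a had slopes of 1.14 (SE 0.202), 0.60 (SE 0.133), 0.80 (SE 0.205) and 0.91 (SE 0.178) in the same order. In both genes the E2F2 null slope was the lowest of the 4.

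Slopes were not shown to differ between genotypes. In a limma test of the interaction, 0 of 8768 genes passed, and 520 were under 0.05 before adjustment. Of the targets, Aen (limma interaction p = 0.0111) and Mdm2 (p = 0.0148) were among these 520, both with an adjusted p of 0.787. The E2F1 null count rested in part on the tumour numbered 3895. Without it 2 of 7 targets passed in E2F1 null tumours, Mdm2 with a slope of 0.59 (limma adjusted p = 0.011) and Cdkn1a with a slope of 1.60 (limma adjusted p = 0.0153), against 0.536% of all genes.

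For 3 targets the relation was also found among tumours that share a label number. With the number as a fixed effect, so that only differences within the 19 shared numbers count, 3 of 7 targets passed against 3.41% of all genes in either direction. Cdkn1a had a slope of 0.90 (limma adjusted p = 0.00362), Mdm2 one of 0.40 (limma adjusted p = 0.00561) and Ccng1 one of 0.27 (limma adjusted p = 0.0311). Gadd45a had a slope of 0.51 (limma adjusted p = 0.0565). This fit was added after the data were seen. The range of Cdkn2a within a number had a median of 1.03 log2 units and reached 3.58 in number 4031. Numbers with a wide range weigh most in such a fit, and it was not repeated without number 4031. Tumours of the same number were little more alike than tumours of the same genotype: the SD of Cdkn2a was 0.95 log2 units within a number and 1.02 within a genotype, and for Mdm2 these were 0.52 and 0.61. Bbc3 was the exception, with an SD of 0.23 within a number and 0.38 within a genotype.

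Number 4031 of the E2F3 heterozygous mice, with 3 tumours, had the widest range of Cdkn2a, Mdm2, Cdkn1a and Ccng1 within a number. Its tumours had Cdkn2a signals of 24.3, 323 and 22.3, Mdm2 signals of 575, 1916 and 406, and Cdkn1a signals of 1316, 4604 and 281. The tumour high in Cdkn2a was thus the one high in both targets. These 3 tumours are part of the fit with the number as a fixed effect and add nothing separate to it.

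**Figure D4:**
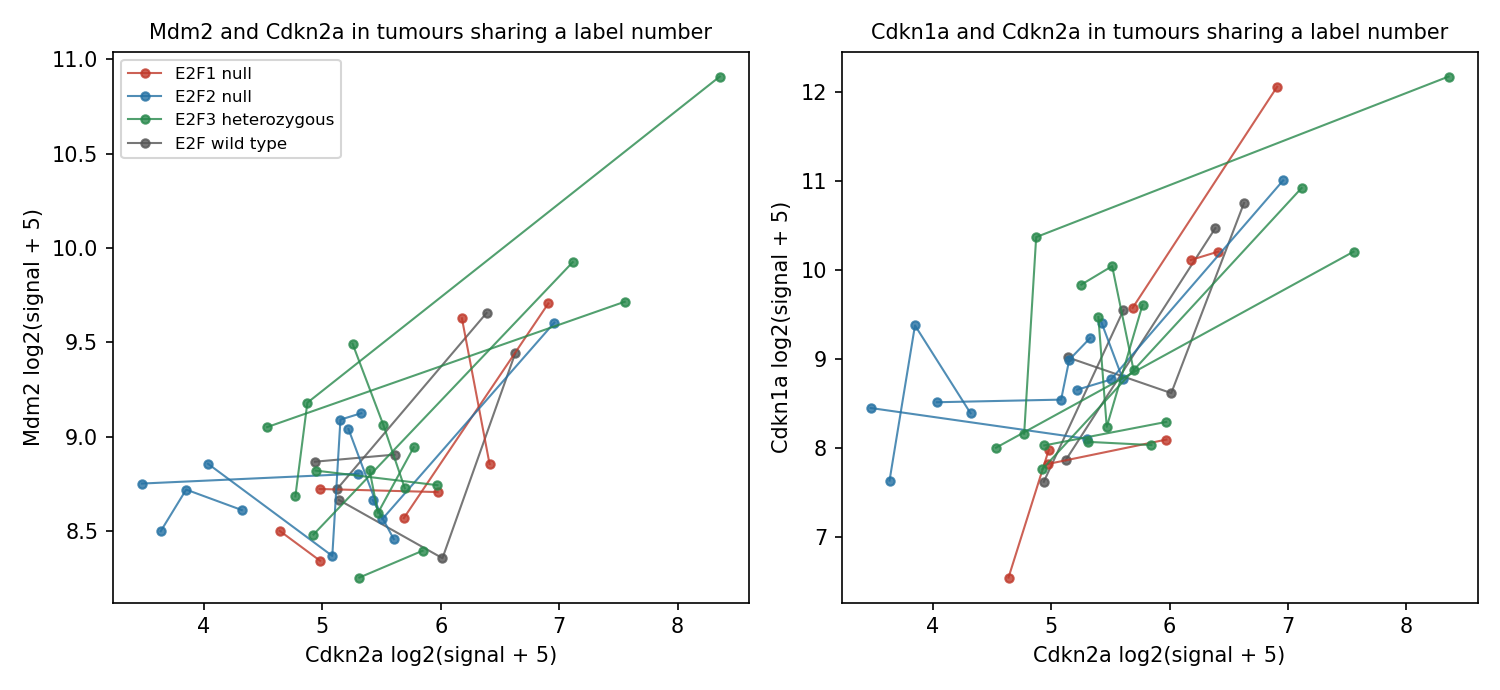
Mdm2 (left) and Cdkn1a (right) against Cdkn2a, all as log2(signal + 5), for the 46 tumours that share a label number. Lines join tumours of the same number and colours give the E2F genotype; the long line at the upper right is number 4031, whose Cdkn2a spans 3.58 log2 units.

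The 8 genes also followed each other. All 28 pairs had a positive Pearson's r over the 53 label-number means, from 0.111 to 0.861. In limma, 24 of the 28 pairs passed in both directions of regression, where single genes as covariates gave positive slopes in 9.06% (Aen) to 28.1% (Cdkn1a) of all genes. Mdm2 and Cdkn1a formed the closest pair (r = 0.861), followed by Cdkn1a with Ccng1 (r = 0.769), Cdkn1a with Gadd45a (r = 0.755), and Mdm2 with Ccng1 (r = 0.746). All 4 pairs that did not pass involved Bbc3 or Aen, namely Cdkn2a with Bbc3, Gadd45a with Aen, Bbc3 with Aen, and Aen with Trp53inp1. Mdm2 was tied more closely to Cdkn1a than Cdkn2a was to either, a difference that was not tested.

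**Figure D5:**
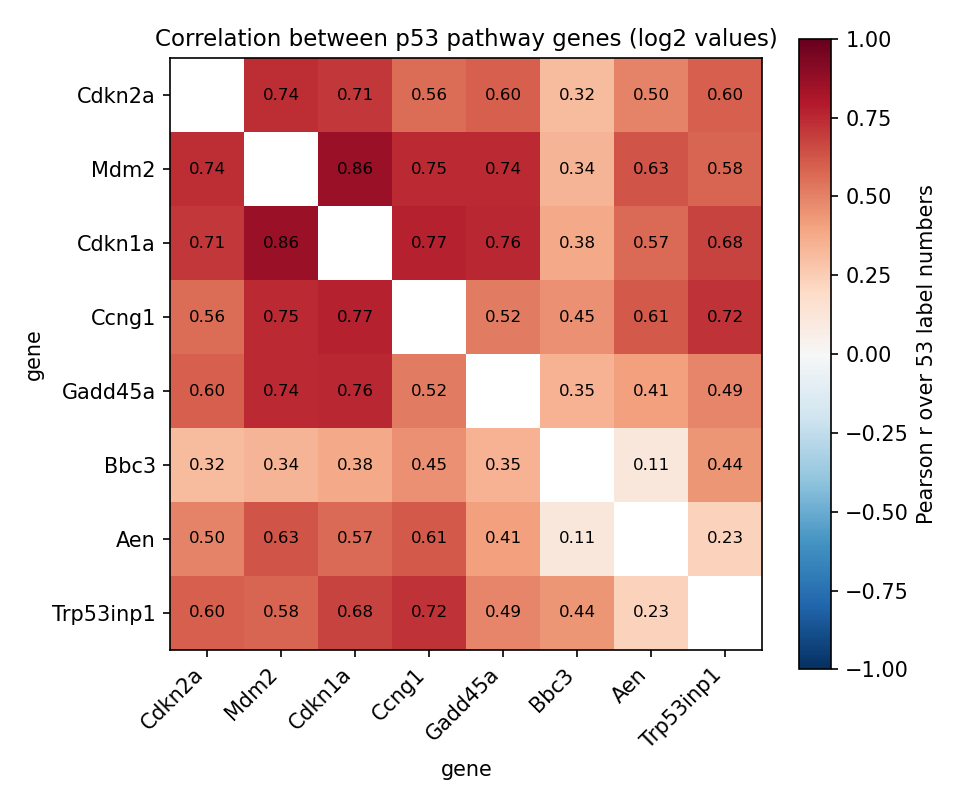
Pearson's r of log2 levels over 53 label-number means for every pair of the 8 measured genes, with the colour scale from -1 to 1. All r are positive; Mdm2 with Cdkn1a is the darkest pair (0.861) and Bbc3 with Aen the palest (0.111).

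A list of 35 further p53 targets leaned the same way. Like the other lists, it was chosen with earlier results of these data known, so it is not independent of them. Of 31 tested, 14 rose with Cdkn2a and 1 fell, against 18.8% and 13.3% of all genes, and the median slope was 0.11 against 0.01 for all genes. Phlda3, a repressor of Akt signalling, had a slope of 0.47 (limma adjusted p = 1.3e-08), and Polk, a translesion DNA polymerase, had one of 0.36 (limma adjusted p = 3.97e-08). The one that fell was Ddb2, a DNA damage recognition factor, with a slope of -0.16 (limma adjusted p = 0.000383), and it was named after its value was seen. Against Mdm2 as covariate, 18 of the 31 rose and 1 fell, where 24.8% of all genes passed with a positive slope and 20.6% with a negative one. In E2F2 null against wild-type tumours, 0 of the 31 passed, 25 of the 31 had a lower mean, and the median log2 fold change was -0.12 against -0.01 for all genes.

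Of 16 tested regulators and kin of p53, 5 rose with Cdkn2a and 4 fell, with a median slope of 0.02. Over all genes 18.8% rose and 13.3% fell, with a median slope of 0.01, and the counts of the following lists are to be read against these shares. Mdm4, a partner of Mdm2 that inhibits p53, had a slope of 0.12 (limma adjusted p = 0.000276), and Chek2, a checkpoint kinase, one of -0.16 (limma adjusted p = 0.000436). Of 3 tested neighbours of Cdkn2a on chromosome 4, only Cdkn2b passed. Cdkn2b, which encodes the related inhibitor p15Ink4b, had a slope of 0.79 (limma adjusted p = 1.34e-07), while the adjacent Mtap had one of 0.03 (limma adjusted p = 0.632), which was also the median of the 3. Among 16 tested regulators of Cdkn2a, 4 rose and 1 fell around a median of 0.05, with Twist1 at 0.68 (limma adjusted p = 6.63e-06) and Id1 at 0.33 (limma adjusted p = 0.000529). Of 13 tested G1 cyclins, kinases and inhibitors, 3 rose and 1 fell around a median of 0.04, and Ccnd2, cyclin D2, had a slope of 0.59 (limma adjusted p = 3.51e-05).

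Genes of cell death beyond the listed ones were mixed: of 18 tested Bcl2 family members and caspases, 4 rose and 1 fell around a median slope of 0.04, where 18.8% of all genes rose and 13.3% fell. The proapoptotic Bik had a slope of -0.38 (limma adjusted p = 0.000105) and the proapoptotic Bcl2l11, or Bim, one of 0.25 (limma adjusted p = 0.000497). No tested gene of mitosis or DNA replication rose with Cdkn2a past the threshold. Of 19 mitotic genes 0 rose and 2 fell (Prc1 and Kif11), and of 18 replication genes 0 rose and 2 fell (Chaf1b and Prim1), where 18.8% of all genes rose and 13.3% fell. The median slope was -0.06 for mitosis and -0.03 for replication.

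The genes most like Cdkn2a over the label-number means were Zfp362 (r = 0.741), Wnt7b (r = 0.740), Itga3 (r = 0.738), Mdm2 (r = 0.736) and Prss22 (r = 0.726). Those most opposite were Epb41l5 (r = -0.706), Bckdhb (r = -0.661), Commd1 (r = -0.651), Acot13 (r = -0.649) and H1f2 (r = -0.646). The genes most like Mdm2 were Phlda3 (r = 0.900), Cdkn2b (r = 0.871), Itga3 (r = 0.868), Cdkn1a (r = 0.861) and Tmem43 (r = 0.854), and those most opposite were Rbm47, Oxa1l, Epb41l5, Rasal1 and Acot13, with r from -0.777 to -0.749. So 2 p53 targets, Phlda3 and Cdkn1a, were among the 5 genes nearest to Mdm2 of 8768.

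Markers of other cell types moved with Cdkn2a in part, and scores of the fibroblast, macrophage, luminal and squamous lists were added as covariates. Scores of the endothelial, basal, adipocyte, muscle and B cell lists were not, so their part in the slopes was not tested. Of 14 tested fibroblast and collagen genes 5 rose with Cdkn2a, with Fn1 at 0.57 and Thy1 at 0.45, and none fell, where 18.8% of all genes rose and 13.3% fell. With so few genes in each of the next lists, 1 or 2 calls do not set a list apart from these shares. Of 8 endothelial genes 3 rose, of 11 macrophage genes 1 rose (Mrc1), and of 5 squamous genes 2 rose (Krt16 and Krt6a). Of 5 tested basal genes 1 rose (Trp63), of 4 adipocyte genes 1 fell (Lpl), and of 8 luminal genes 1 rose (Foxa1) and 1 fell (Elf5). None of 8 muscle and 2 B cell genes passed, and of the T and NK cell genes none was bright enough to test. Median slopes were 0.16 for fibroblast, 0.14 for endothelial, 0.04 for macrophage, 0.23 for squamous, 0.14 for basal, -0.09 for adipocyte, -0.01 for luminal, 0.12 for muscle and -0.16 for B cell genes. Summed fibroblast signals, over 14 genes with each above 74.6 on some array, ran from 6973 to 162339 in E2F1 null, 8752 to 53279 in E2F2 null, 12001 to 109365 in E2F3 heterozygous and 9456 to 127346 in wild-type tumours. Summed squamous signals of 8 genes, 1 of them never above 74.6, ran from 252 to 3891, 291 to 8831, 347 to 8921 and 251 to 11816 in the same order. With fibroblast, macrophage, luminal and squamous scores as covariates, a fit added after seeing the data, all 7 targets passed, against 27.9% of all genes. Mdm2 then had a slope of 0.37, Cdkn1a one of 0.75 and Bbc3 one of 0.11 (limma adjusted p = 0.0396).

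Array quality and the means of whole chromosomes also moved with the genes. Over the 80 arrays the median log2 signal of an array had an r of 0.31 with Cdkn2a, 0.41 with Mdm2 and 0.44 with Cdkn1a. With this median and the 3′ to 5′ ratio of Gapdh as covariates, the genes called in either direction fell to 14.7% against 32.1% without them, and 5 of 7 targets passed, with Aen lost (limma adjusted p = 0.058). The slopes were then 0.36 for Mdm2 and 0.68 for Cdkn1a. The mean of 458 other chromosome 6 genes had an r of 0.63 with Gadd45a, which lies on that chromosome, 0.57 with Mdm2 and 0.38 with Cdkn2a. With it as a covariate 6 of 7 targets passed, against 24.7% of all genes, and Gadd45a had a slope of 0.36 (limma adjusted p = 0.000424). Cdkn2a and Trp53inp1 lie on chromosome 4, and the mean of its 547 other genes had an r of 0.45 with Cdkn2a, 0.47 with Trp53inp1 and 0.50 with Mdm2, while the mean of other chromosome 10 genes had an r of 0.49 with Mdm2, which lies there. With the chromosome 4 mean as a covariate 6 of 7 targets passed, against 13.8% of all genes, with slopes of 0.36 for Mdm2, 0.77 for Cdkn1a and 0.21 for Trp53inp1 (limma adjusted p = 0.038). Both chromosome fits were added after seeing the data.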

How the data were processed

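Each of the 80 tumours gave 1 Affymetrix array. The authors computed the deposited intensity values with MAS5 (Affymetrix Expression Console), per the submitters' processing notes; the sources name no versions. No cell files were used, so MAS5's background step and scaling were kept, and a change in total mRNA per cell cannot be seen. Of 22690 probe sets, 64 controls were left out; 20380 had 1 gene symbol, 691 several and 1555 none, and only the first kind was named.

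Intensities were taken as log2(value + 5). Probe sets above 74.6 (the 40th percentile) on at least 10 arrays were kept, and the brightest stood for its gene, leaving 8769 of 12393 genes. All fits used R 4.3.3 with limma 3.58.1, statmod 1.5.0, intensity trend, robust moderation, and the label number as a random block (consensus correlation 0.159 for genotype and 0.165 for slopes); tests were two-sided, adjusted by Benjamini-Hochberg over all tested genes, with a threshold of 0.05. Genotype was tested over all 80 arrays. Slopes on Cdkn2a had genotype as a factor. Correlations over label-number means had no genotype term and were tested with 100000 permutations (numpy 2.4.6), and mixtures were fitted with mclust 6.1.1. Scores of marker lists were means of gene-centred log2 values. The fits were tested on simulated data.

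The 10 genes, their roles and the gene lists were chosen with earlier results of these data known. Besides the 10 genes, the text names the 2 genes of smallest p in a list and the 5 most and least like Cdkn2a and Mdm2. Alternatives were the pseudocount, the low-value filter, single probe sets, the block, quantile normalization, an array left out, quality, marker and chromosome covariates, and each genotype alone. Replicates are separate tumours; where several came from 1 animal is not given, so the label number was used in its place. Arrays give no counts, and their number limits the precision.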

Additional observations from a re-analysis of the deposited data

How the results depend on the processing

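Under all 10 settings of the genotype fit, 0 of the 8 genes passed in any mutant background against wild type or in the F test; over the fold changes of each gene under the 9 alternatives, 210 of 216 kept their sign and their side of the threshold and 6 changed sign, each near 0. These were Cdkn1a at 0.0398 and Mdm2 at 0.0211 in E2F1 null over wild type with array quality covariates, Mdm2 at 0.0043 and Trp53inp1 at -0.0255 in the same contrast with means per label number, Trp53inp1 at -0.00047 without E2F1 null replicate 6, and Trp53inp1 at 0.0359 in E2F3 heterozygous over wild type with no label-number block. Against Cdkn2a, 6 targets passed with all tumours, 0 within E2F2 null, 0 within E2F3 heterozygous, 2 within E2F1 null without replicate 9, and 3 with the label number as a fixed effect. The fits within 1 genotype use fewer tumours and that with the fixed effect only shared numbers; the last 2 were added after seeing the data. Leaving arrays out gave 2 to 6 targets. Of the slopes of single targets under alternatives, 118 stayed on their side of the threshold, 24 lost it, 3 gained it and 2 changed sign, namely Bbc3 at -0.0322 within E2F2 null and at -0.00936 within E2F1 null without replicate 9. Across settings, genes called against Cdkn2a in the whole table ran from 2815 with all tumours to 0 within E2F3 heterozygous, 3 within E2F2 null, 395 within E2F1 null, 944 within wild type, 47 within E2F1 null without replicate 9, 299 with the number as a fixed effect, 1291 with array quality covariates, 1209 with the chromosome 4 mean, and 4279 when each probe set was tested on its own. For genotype, over 1.5-fold shifts in the whole table were as follows. Single probe sets gave 13 calls against 4 genes in E2F1 null over wild type, 5 against 2 in E2F2 null over wild type, 1 against 0 in E2F3 heterozygous over wild type, 32, 17 and 9 against 14, 7 and 3 between the mutants, and 31 against 13 in the F test. Means per number gave 7, 3 and 1 between the mutants and 8 in the F test, as quantile normalization did in the F test. Array quality covariates gave 8 in E2F1 null and 1 in E2F3 heterozygous over wild type, and 11 and 5 in both mutants against E2F3 heterozygous, and leaving out the block gave 5 in E2F2 null over E2F3 heterozygous. The gain of a second Cdkn2a component stayed under 10 BIC units under every alternative, from -3.68 with means per number to 9.23 within E2F3 heterozygous. The fits against Trp53 were not run, since no probe set used here is named for it. No paired analysis was possible because the replicate numbers are only accession order and the label numbers differ between genotypes. Cdkn2a lay near background in most tumours: only 16 of 80 arrays passed 74.6, so its order among the low arrays is imprecise.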
